A study of Mus musculus with 3 samples.

Results

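The 9 genes Bmp2, Bmp4, Grem1, Smad6, Smad7, Id1, Id2, Id3 and Id4 were followed through a culture in which mouse testis cells became Leydig cells, the testosterone-producing cells of the interstitium. They were chosen by name, with earlier results of these data known, as ligands, inhibitors and targets of bone morphogenetic protein (BMP) signalling. All 9 were found among 23473 genes with a count. Cells were sorted as Sca1+/cKit- from testes of adult C57BL/6 males aged 8 to 12 weeks, with no transgene in the labels. They were plated at 100000 per well, left to recover for 18 h in 10% FBS, and then grown for 3 days in a medium that held Fgf2 and both growth factors PdgfBB and PdgfAA, each at 10 ng/ml, together with SAG, a hedgehog agonist, at 0.5 uM. The differentiation medium then added LiCl2 (5 mM), which acts on Wnt signalling, and the Notch inhibitor DAPT (10 uM). No BMP was listed in either medium. The 3 groups are culture days 4, 7 and 14 of this scheme. By the study's account, day 4 was taken at the end of expansion and days 7 and 14 after the change of medium, so each comparison with day 4 also differs in medium, and day and medium cannot be told apart there. The sorted cells were a mixed population. There was 1 Drop-seq library per day, a method that captures single cells in droplets and counts unique molecular identifiers (UMIs), each standing for 1 captured mRNA.

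BMP ligands such as BMP2 and BMP4 bind pairs of serine/threonine kinase receptors on the cell surface, which phosphorylate SMAD1, SMAD5 and SMAD9. With SMAD4 these enter the nucleus and switch on target genes, of which the Id genes are the classical ones. ID proteins are helix-loop-helix proteins without a DNA-binding region that take up E proteins and so keep other bHLH factors from binding DNA, and they are widely known from undifferentiated and cycling cells. The pathway is braked at several levels. Gremlin 1, the product of Grem1, is secreted and traps BMP2 and BMP4, while SMAD6 and SMAD7 act inside the cell, and their genes are themselves targets of the signal.

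The promoters of 6 of the 9 genes (Bmp4, Grem1, Id2, Id3, Id4 and Smad6) were at hand in the RefSeq table for GRCm38.p6, each from 250 bases before to 50 bases after the start. They were searched for GTCTAGAC, the palindromic SMAD box, and GGCGCC, a GC-rich element known from BMP-responsive enhancers. Both are palindromes, so a single search covers both strands, and they do not overlap each other. The first is held by 0.213% of 32851 promoter windows of the same length and the second by 11.9%. GTCTAGAC was found in Smad6 alone of the 6, with its first base 4 bases before the start. GGCGCC was found 78 bases before the start of Grem1, 231 bases before the start listed for Id2 and 148 bases before the start of Id4. Neither was found in Bmp4 or Id3, and a match is a run of letters and not a measured site. The stretches around 3 of the matches are shown because these 3 genes passed 2-fold between days, with the match in capitals. They lie on the minus strand at chr9:64022040-64022179 (Smad6), chr2:113758649-113758778 (Grem1) and chr12:25096254-25096342 (Id2). The Id2 stretch lies inside the gene span given below, 25093799 to 25097140. The start listed for Id2 is therefore not the outer end of that span, and its match is not upstream of the whole gene.
Smad6: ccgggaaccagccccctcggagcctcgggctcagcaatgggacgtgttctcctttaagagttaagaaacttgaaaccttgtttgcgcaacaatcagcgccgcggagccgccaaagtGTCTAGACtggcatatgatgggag
Grem1: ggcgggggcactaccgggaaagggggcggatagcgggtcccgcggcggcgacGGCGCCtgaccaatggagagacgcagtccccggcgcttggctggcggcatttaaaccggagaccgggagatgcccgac
Id2: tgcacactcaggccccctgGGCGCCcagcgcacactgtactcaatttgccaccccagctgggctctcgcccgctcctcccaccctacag

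The libraries held 2980 (day 4), 2171 (day 7) and 973 (day 14) cells, with 5324400 to 12677110 UMIs per day and a median of 2886.5 to 3285 UMIs per cell. No cell barcode was shared between libraries. A gene's level is given as UMIs per 1000000 UMIs of the same cells (CPM) with an exact Poisson 95% interval, which covers counting error only, and levels are compared within a gene and not between genes. Cells of a library are not replicates, so no test was possible, and differences between days cannot be told apart from differences between libraries. A difference is called past 2-fold when the log2 ratio of (CPM + 1) is at least 1 in size and both groups together hold at least 20 UMIs. Prm1, a sperm gene that cultured stromal cells should lack, had a UMI in 4.30%, 4.24% and 9.15% of cells on days 4, 7 and 14, at median depths of 2886.5, 3285 and 3272 UMIs. A share of cells at or below these values is not read as expression. Germ cell markers summed to 24.3 to 137 CPM per day, of which 3 cells held 77.3% of the UMIs on day 4. Macrophage markers summed to 11.4 to 241 CPM, of which 3 cells held 95.6% on day 14. The part of such cells in the results was not tested.

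Between days 4 and 7 the inhibitor gene Grem1 was higher, and Bmp4, Id3 and Smad6 were lower. That is 4 of the 7 members with enough UMIs to compare, against 5.01% of all 12954 genes compared (2.25% higher and 2.76% lower). Because the members were chosen with earlier results of these data known, such shares are a description only. The median log2 ratio of these 7 members was -0.70, beside 0.09 for all genes. Between days 7 and 14 Grem1 was no longer found, while Bmp2 and Id2 were higher. These are 3 of 7 members compared, against 24.1% of 12656 genes (10.1% higher and 14% lower). From day 4 to day 14 Bmp2 was higher and Bmp4, Grem1 and Smad6 were lower, 4 of 8 members against 28.8% of 12712 genes (13.5% higher and 15.3% lower). The day comparisons share libraries and are not independent of each other. Shares of cells with a Bmp2 or Smad6 UMI were below that of Prm1 on every day. The same held for Grem1 on days 4 and 14 and for Bmp4 on days 7 and 14. Calls for these genes therefore rest partly or wholly on levels that are not read as expression.

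Among the ligands, Bmp4 (chromosome 14, 46383520 to 46390669) was at 18.5 CPM on day 4 (235 UMIs, interval 16.2–21.1), 7.05 on day 7 (82 UMIs, 5.61–8.75) and 6.76 on day 14 (36 UMIs, 4.74–9.36). It was thus highest on day 4, and the intervals of days 7 and 14 overlapped. The level on day 7 was 0.38 of that on day 4 (interval 0.292–0.491). A Bmp4 UMI was seen in 6.61% of cells on day 4 but in 3.36% and 2.36% on days 7 and 14, below the share of Prm1 on those days. On day 14, 6 cells held 50% of the Bmp4 UMIs, and the highest held 7. With each cell thinned to 1500 UMIs, the log2 ratio of day 14 to day 7 was -1.36 in place of -0.05.

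Bmp2 (chromosome 2, 133552159 to 133562885) was highest on day 14 and lowest on day 7. It had 9 UMIs on day 4 (0.71 CPM, 0.325–1.35), 3 on day 7 (0.258 CPM, 0.0532–0.754) and 36 on day 14 (6.76 CPM, 4.74–9.36). Day 14 stood above both earlier days, 9.52-fold above day 4 (interval 4.5–22.5) and 26.2-fold above day 7 (8.28–133), the latter against 3 UMIs. The 36 UMIs of day 14 were spread over 31 cells, or 3.19% of cells, below the share of Prm1. In the day 14 classes given below, a Bmp2 UMI was seen in 0.929% of differentiating Leydig-like and 6.0% of Leydig-like cells. Both shares were below those of Prm1, 7.06% and 12.0%. Prm1 was at 21.1 and 16.5 CPM in the same classes. The part of RNA from outside the cells in the Bmp2 UMIs was not tested.

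Grem1 (chromosome 2, 113746164 to 113758646) had the widest swing of the 9 genes. It was at 8.36 CPM on day 4 (106 UMIs, interval 6.85–10.1), 63.6 on day 7 (739 UMIs, 59.1–68.3) and was not seen on day 14 (0 UMIs). Day 7 was 7.6-fold above day 4 (interval 6.19–9.41). A count of 0 allows up to 0.563 CPM on day 14. By the interval of the ratio, day 14 was at least 91.5-fold lower than day 7 and at least 11.9-fold lower than day 4. Both bounds take UMIs as independent, although on day 4 they fell in few cells. In cells, the UMIs fell in 20 of 2980 cells on day 4 (0.671%), in 223 of 2171 on day 7 (10.3%, Clopper-Pearson 95% interval 9.03–11.6%) and in 0 of 973 on day 14, which allows a share of up to 0.308% of cells with a UMI. This limit does not extend to cells that express the gene without a captured UMI. The day 4 share was below that of Prm1, although 5 cells of that day held 5 or more Grem1 UMIs. Thinned to 1500 UMIs per cell, the shares were 0.494%, 5.91% and 0%.

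Much of the Grem1 signal came from a minority of the cells that had any, while 9 of 20 such cells on day 4 and 94 of 223 on day 7 had a single UMI. On day 4, 3 cells held 50% of the 106 UMIs, and a single cell held 31. The mean was 5.3 Grem1 UMIs per cell with any on day 4 and 3.31 on day 7, where 47 cells held 5 or more. The bars of cells by their number of Grem1 UMIs show that on day 7 the cells with 5 to 9 UMIs, 34 in number, held more of the UMIs (229) than the 94 cells with a single one.

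**Figure D1:**
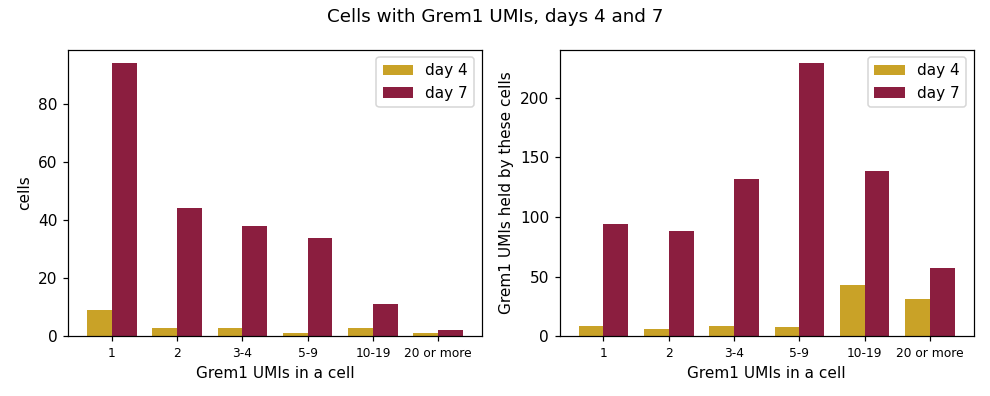
Cells of day 4 (yellow) and day 7 (red) by the number of Grem1 UMIs they held (x axis), as number of cells (left) and as UMIs held by these cells (right). Day 14 had no Grem1 UMI and is not drawn. On day 7 the 34 cells with 5 to 9 UMIs held 229 UMIs, and on day 4 the only cell with 20 or more held 31 of 106.

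The 2 inhibitory SMAD genes differed from each other. Smad6 (chromosome 9, 63953076 to 64022059), whose product blocks the BMP-activated SMADs in particular, had 44 UMIs on day 4 (3.47 CPM, 2.52–4.66), 11 on day 7 (0.946 CPM, 0.472–1.69) and 3 on day 14 (0.563 CPM, 0.116–1.65). Day 4 was above both later days, and the intervals of days 7 and 14 overlapped. Its share of cells, at most 1.41%, was below that of Prm1 on every day. Smad7, whose product also acts on TGF-beta receptors, was at 29.5 CPM on day 4 (374 UMIs, 26.6–32.6), 28.0 on day 7 (325 UMIs, 25–31.2) and 16.0 on day 14 (85 UMIs, 12.8–19.7). Days 4 and 7 did not differ beyond counting error (ratio 0.947, interval 0.814–1.1), and day 14 was 0.571 of day 7 (0.444–0.727), short of 2-fold. With cells thinned to 1000 UMIs, this last log2 ratio was 0.18 in place of -0.77. A Smad7 UMI was seen in 7.71% of cells on day 14, below the share of Prm1.

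Of the Id genes with enough UMIs to compare, Id1, Id2 and Id3 each had their lowest level on day 7, although not every difference was past 2-fold. Id3 (chromosome 4, 136143497 to 136145755) was at 108 CPM on day 4 (1369 UMIs, interval 102–114), 40.2 on day 7 (467 UMIs, 36.6–44) and 80.6 on day 14 (429 UMIs, 73.1–88.6). All 3 intervals were apart. Day 7 was 0.372 of day 4 (0.334–0.413), and day 14 was 2.01-fold above day 7 (1.76–2.29), a log2 ratio of 0.99 with the added 1 CPM and so just short of the call.

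Id2 (chromosome 12, 25093799 to 25097140) was at 24.8 CPM on day 4 (315 UMIs, 22.2–27.7), 14.9 on day 7 (173 UMIs, 12.7–17.3) and 38.3 on day 14 (204 UMIs, 33.2–43.9). Its order was thus day 7, day 4, day 14, with no overlap, and day 14 was 2.58-fold above day 7 (2.09–3.17). Id1 (chromosome 2, 152736251 to 152737410) was at 59.5 CPM on day 4 (754 UMIs, 55.3–63.9), 48.2 on day 7 (560 UMIs, 44.3–52.3) and 64.6 on day 14 (344 UMIs, 58–71.8). Days 4 and 14 overlapped, and no ratio between days reached 1.5. Id4 (chromosome 13, 48261228 to 48266026) had 4, 1 and 0 UMIs on days 4, 7 and 14 and was not compared.

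Shares of cells followed the same order for Id3. An Id3 UMI was seen in 13% of cells on day 4, 5.80% on day 7 and 11.5% on day 14 after thinning to 1500 UMIs per cell (25.6%, 13.3% and 20.8% before), against 1.93%, 1.38% and 3.15% for Prm1. The thinned shares were 8.04%, 6.66% and 8.31% for Id1, and 3.64%, 2.30% and 7.05% for Id2. Thinning left out 753, 429 and 179 cells of days 4, 7 and 14.

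**Figure D2:**
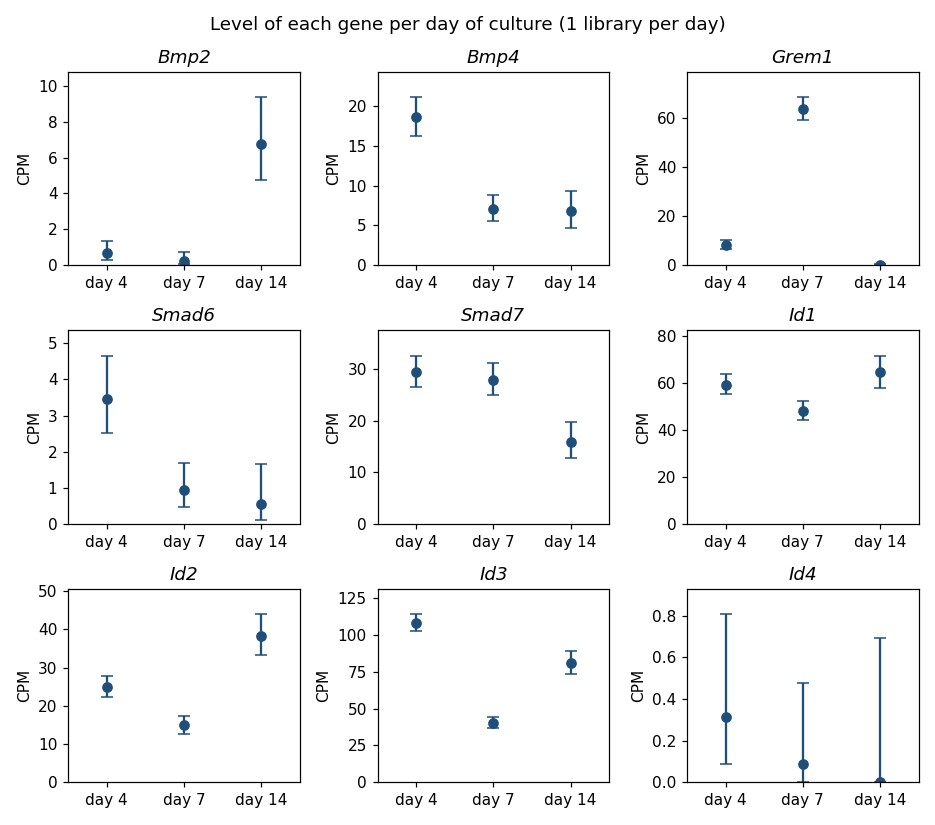
Level of each of the 9 genes (y axis, CPM) on days 4, 7 and 14 of culture, 1 library per day. Points are summed UMIs of all cells and bars are exact Poisson 95% intervals, which cover counting error only. Grem1 peaks at 63.6 CPM on day 7 and is at 0 on day 14, Bmp2 is highest on day 14 at 6.76 CPM, and Id2 and Id3 are lowest on day 7.

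The mix of cells changed between days, so levels were also read per cell class. Clusters were made without the 9 genes and without the other pathway genes, and classes were named from marker lists that the study had largely chosen on these same libraries. Differentiating myofibroblast-like cells made up 53.8% of day 4, extracellular matrix (ECM) myofibroblast-like cells 59.9% of day 7, and differentiating Leydig-like (538 cells) and Leydig-like cells (417 cells) 55.3% and 42.9% of day 14. Proliferating progenitor-like cells were 19.4% of day 4 and 21.6% of day 7. An unnamed cluster led by Ifitm1, Igfbp3, Lrrc17 and Penk, kept out of any class by thresholds set after the clusters were seen, held 21.4% of day 4 and 1.2% of day 7. The small differentiating Leydig-like group of day 4 (88 cells) and that of day 14 came mostly from one cluster, led by Slc38a5 and Gpx3. That of day 7 (288 cells) came mostly from another, led by Eln and Mfap4. Values of this class on day 7 are therefore from cells unlike those of days 4 and 14.

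Within day 14, Id1, Id2 and Id3 were higher in the differentiating Leydig-like than in the Leydig-like cells. Stage of differentiation was not measured. In the former, 10 of 12 differentiating myofibroblast, 8 of 11 ECM myofibroblast and 7 of 12 interstitial progenitor markers were past 2-fold higher (0, 1 and 0 lower). Of its own 12 markers 4 were higher and 0 lower, while all 12 Leydig markers were lower. Of all genes, 5.91% were higher and 4.12% lower. Id1 was at 112 CPM in differentiating Leydig-like cells (217 UMIs) and 37.6 in Leydig-like cells (123 UMIs), a ratio of 2.97 (interval 2.37–3.74). Id2 was at 72.2 CPM (140 UMIs) and 18.0 CPM (59 UMIs), a ratio of 4.0 (2.93–5.52). Id3 was at 146 CPM (283 UMIs) and 40.4 CPM (132 UMIs), a ratio of 3.61 (2.93–4.48). For all 3 genes the intervals of both classes were apart, and this comparison is within 1 library.

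The ligand Bmp2 was the other way round, with 5 UMIs (2.58 CPM) in the differentiating and 30 UMIs (9.17 CPM) in the Leydig-like cells, a ratio of 0.281 (interval 0.0851–0.731). Smad7 was at 21.6 and 12.8 CPM (ratio 1.69, 1.07–2.65) and Bmp4 at 7.22 and 6.73 CPM (1.07, 0.508–2.19), both short of 2-fold. Shares of cells with a Smad7 UMI were 6.69% and 9.11%, below those of Prm1 (7.06% and 12.0%). Grem1 and Id4 were at 0 in both. In all, 3 of the 6 members compared were past 2-fold higher and 1 lower in the differentiating class, against 5.91% and 4.12% of 10255 genes. After thinning to 1500 UMIs, an Id1 UMI was seen in 13.5% and 3.75% of cells, an Id2 UMI in 11.6% and 2.75%, and an Id3 UMI in 16.9% and 6%, while Prm1 was seen in 3.96% and 2.5%. Shares of Id1 and Id2 in Leydig-like cells thus lay near that of Prm1.

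The 12 immediate-early genes, which respond within minutes to growth factors and to tissue handling, were read beside them. Of 11 that could be compared, 9 were past 2-fold higher in the differentiating cells and 0 lower (all genes 5.91% and 4.12%), with a median log2 ratio of 1.25 beside 0.05 for all genes. Fos was at 143 and 51.7 CPM, Klf4 at 24.7 and 3.67 CPM and Klf2 at 27.3 and 7.95 CPM. Endothelial markers summed to 61.9 and 19.3 CPM, mostly Cdh5 (46.9 and 6.42), with Pecam1 at 0 in both classes. The part of these genes and cells in the Id levels was not tested. Median depth also differed, at 2209.5 UMIs per differentiating and 5584 per Leydig-like cell.

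The same was read along the Leydig markers, which had also named the Leydig-like class, so this is not independent of the classes. The 973 cells of day 14 were ordered by the share of their UMIs that came from 12 Leydig markers, such as Cyp17a1 and Hsd3b1, and cut into 5 groups of 194 or 195. From the lowest to the highest marker share, the groups held 0, 19, 78, 145 and 175 Leydig-like cells. Per 1000000 UMIs of all other genes, Id3 was at 159, 133, 70.3, 45.4 and 34.2 from the lowest to the highest marker share. Id1 was at 114, 97.3, 66.6, 51.8 and 21.0, and Id2 at 67.0, 62.0, 37.9, 24.5 and 16.3. Each step was downward for all 3 genes, and the intervals of the first and last groups were far apart (for Id1 92.4–139 and 13.8–30.5). Smad7 ran from 24.7 to 10.9. Median depth ran the other way, from 2811 to 4287 UMIs per cell.

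**Figure D3:**
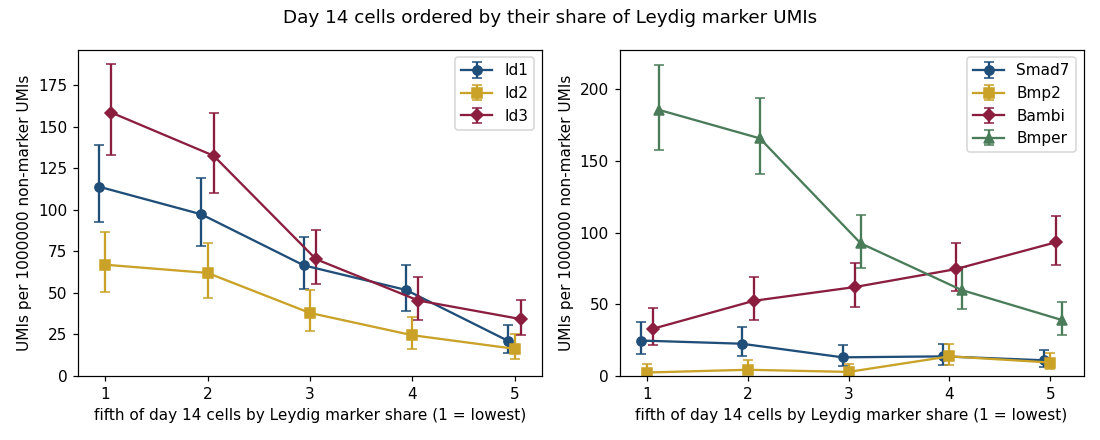
Cells of day 14 in 5 equal groups by their share of Leydig marker UMIs (x axis, lowest at 1), with the level of each gene per 1000000 UMIs of non-marker genes (y axis). Bars are exact Poisson 95% intervals. Id1, Id2 and Id3 (left) step down across the groups, Id3 from 159 to 34.2, as does Bmper (right), while Bambi runs from 32.9 to 93.3 and Bmp2 and Smad7 stay below 25.

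On day 7, Grem1 divided the classes. It was at 76.7 CPM in ECM myofibroblast-like cells (569 UMIs in 1301 cells) and 61.6 in proliferating progenitor-like cells (164 UMIs in 468 cells), but at 5.18 in differentiating Leydig-like cells (6 UMIs in 288 cells, each in a different cell). The ECM class was thus 14.8-fold above the differentiating Leydig-like class (interval 6.76–40.5) and Grem1 was the 1 of 6 members past 2-fold, against 12.1% of genes. Against the proliferating class, the differentiating Leydig-like cells were at 0.0842 of its Grem1 level (0.0305–0.187), again 1 of 6 members, against 17.3% of genes. No Grem1 UMI was seen in 54 differentiating myofibroblast-like cells, too few to set a level. Of the day 7 UMIs, 77.0% were in ECM myofibroblast-like and 22.2% in proliferating cells.

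The ECM class was made of 2 main clusters of unlike depth. Grem1 was at 108 CPM in the shallower, led by Grem1, Hmga2 and Postn, and at 67.4 CPM in the deeper, led by Mgll, Anxa8 and Gadd45a (ratio 1.6, interval 1.34–1.92). Grem1 was not among the genes used for clustering. Id2 was at 21.5 and 10.8 CPM in the same clusters (1.98, 1.28–3.03). None of the 6 members compared was past 2-fold, 0 against 2.12% of genes.

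Within the proliferating class, which both earlier days held in number, Grem1 was at 3.16 CPM on day 4 (9 UMIs) and 61.6 on day 7 (164 UMIs), 19.5-fold higher (interval 10–43.3). Smad6 was lower (15 and 5 UMIs, ratio 0.356, interval 0.101–1.03), but the interval included 1. Id3 was at 130 and 65.7 CPM, a ratio of 0.507 (0.421–0.608), a log2 ratio of -0.97 and so just short of the call. Id2 was at 27.4 and 15.4 CPM (0.561, 0.375–0.83) and Id1 at 68.9 and 65.7 CPM (0.954, 0.773–1.18). Past 2-fold were 2 of 7 members, against 5.93% of genes.

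Day 4 Grem1 lay in few places. The differentiating myofibroblast-like cells held 96 of the 106 UMIs (14.9 CPM) in 14 of 1602 cells, and the proliferating cells held 9 (3.16 CPM, ratio 0.213, interval 0.0944–0.421), 1 of 7 members compared against 7.72% of genes. The unnamed Ifitm1, Igfbp3, Lrrc17 and Penk cluster had 0 UMIs in 637 cells, at a median of 3527 UMIs per cell. By the interval of the ratio it was at least 11.3-fold lower than the differentiating myofibroblast-like cells, although 3 cells of the day held 50% of the Grem1 UMIs. This was 1 of 7 members compared, against 5.04% of genes. Bmp4 in the same pair was at 24.1 and 19.7 CPM (ratio 1.22, interval 0.899–1.65).

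Among the Id genes on days 4 and 7, Id3 varied most between classes. On day 4 it was at 223 CPM in the 88 differentiating Leydig-like cells (62 UMIs), 130 in proliferating, 113 in the unnamed cluster and 92.2 in differentiating myofibroblast-like cells. The first of these was 2.42-fold above the last (interval 1.83–3.15). By the log2 ratio with 1 CPM added, Grem1 (0 and 96 UMIs) and Smad7 (2 and 202 UMIs) were also called, so 3 of 6 members were called, against 31.7% of genes. At this depth Grem1 is bounded only as at least 1.1-fold lower, and the Smad7 ratio was 0.23 with an interval of 0.0276–0.841. On day 7 it was at 65.7 CPM in proliferating, 62.2 in differentiating myofibroblast-like (12 UMIs), 47.5 in differentiating Leydig-like and 28.0 in ECM myofibroblast-like cells. The ECM level was 0.427 of the proliferating level (0.348–0.525), and Id3 was the 1 of 6 members past 2-fold, against 8.1% of genes. Id1 on day 7 differed less between the same 2 classes, at 42.6 and 65.7 CPM (0.649, 0.538–0.785).

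In the differentiating Leydig-like class, Id1, Id2 and Id3 were all higher on day 14 than on day 7. Id1 was 2.44-fold higher (interval 1.8–3.36), Id2 3.98-fold (2.5–6.63) and Id3 3.07-fold (2.29–4.18), 3 of 5 members compared, against 4.73% of genes that were higher and 10.3% in either direction. The day 14 cells were mostly of the Slc38a5 and Gpx3 cluster and the day 7 cells of the Eln and Mfap4 cluster. Id3 on day 4 in this class, 223 CPM, was above that of day 14, 146 CPM (ratio of day 14 to day 4, 0.654, 0.495–0.876), short of 2-fold. Between these days Smad7 (42 and 2 UMIs, ratio 3.01, 0.783–25.7) was the 1 of 4 members past 2-fold, against 19.7% of genes, and its interval included 1. From day 4 to day 7, Id3 was at 0.213 (0.146–0.311) and Id2 at 0.42 (0.198–0.937) of its first level and Smad7 (2 and 22 UMIs) was called higher with an interval that included 1 (ratio 2.64, 0.65–23.2). These were 3 of 4 members, against 14.8% of genes.

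**Figure D4:**
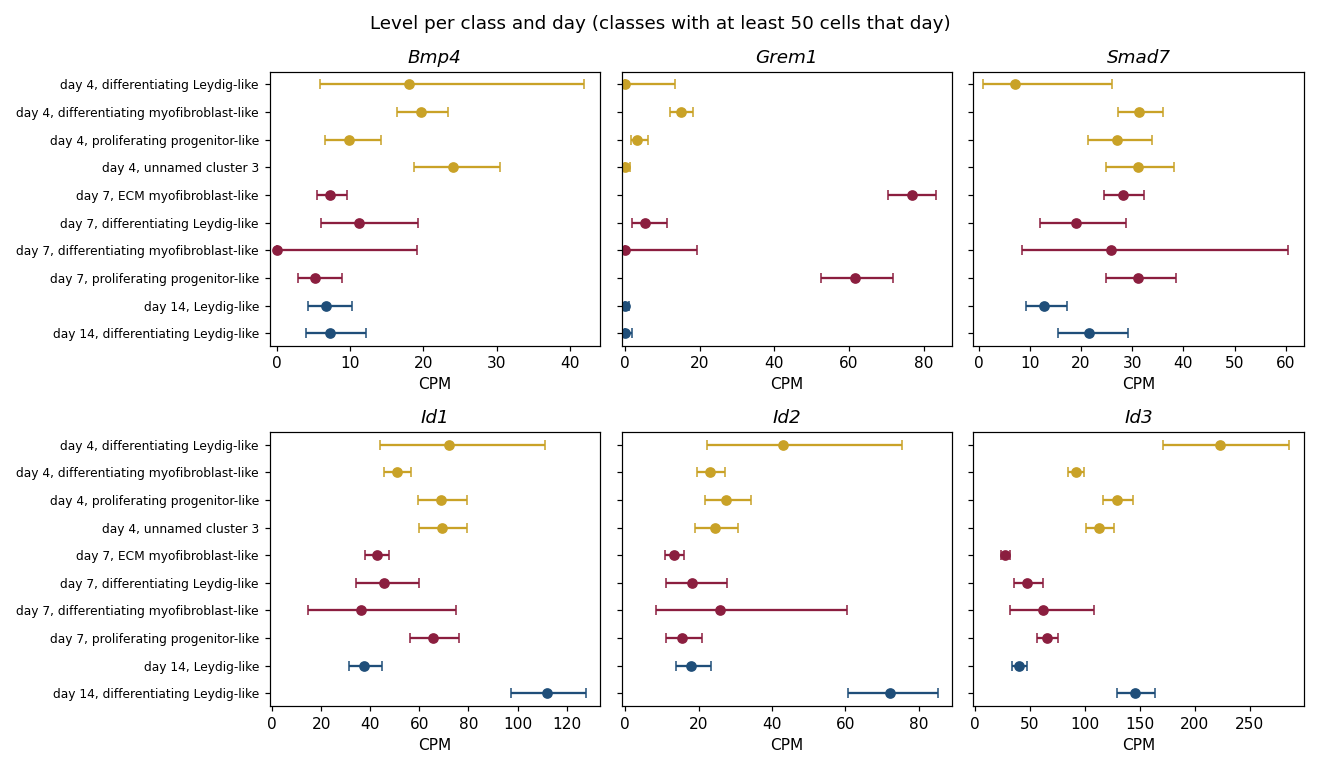
Level (x axis, CPM) of 6 of the genes in the 10 class and day groups with at least 50 cells (y axis), day 4 in yellow, day 7 in red and day 14 in blue. Bars are exact Poisson 95% intervals. Grem1 stands at 76.7 and 61.6 CPM in 2 classes of day 7 and below 15 elsewhere, and Id1, Id2 and Id3 stand higher in the differentiating Leydig-like than in the Leydig-like cells of day 14.

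Cells with and without Grem1 were also compared on day 7 at equal depth, as a description of 1 library. Of the ECM myofibroblast-like cells thinned to 1500 UMIs, 83 had a Grem1 UMI and 976 had none. An Id1 UMI was seen in 13.3% of the first and 5.94% of the second, and an Id2 UMI in 6.02% and 1.54%. An Id3 UMI was seen in 6.02% and 4.30% (ratio of levels 1.53, interval 0.535–3.6). Acta2, the smooth muscle actin gene, was seen in 85.5% and 82.4%. The values for Id1 and Id2 rest on 11 and 5 Grem1 cells, and within this class the cluster with the higher Grem1 level also had the higher Id2 level. Of the proliferating cells, 19 had Grem1 and 377 had none. An Id3 UMI was seen in 26.3% and 6.90% of them (5 and 26 cells, ratio of levels 4.63, interval 1.72–10.8). An Id1 UMI was seen in 26.3% and 7.69% (5 and 29 cells, ratio 3.31, 1.0–8.61). An Id2 UMI was seen in 0% and 2.65% (0 and 10 cells, interval of the ratio 0–8.85). Pairs of Id genes in the same cell were also counted. On day 14, 18 thinned cells had both Id1 and Id3, where 7.56 would be met if the genes fell independently, 15 had both Id2 and Id3, against 6.42, and 5 had both Id1 and Id2, against 4.65. On day 7 the figures were 7 and 6.73 for Id1 and Id3, 5 and 2.32 for Id2 and Id3, and 5 and 2.66 for Id1 and Id2. For the same pairs on day 4 they were 26 and 23.3, 17 and 10.5, and 8 and 6.51. The day 14 cells mix 2 classes in which all 3 genes differed in level, and the part of this mix was not tested.

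The rest of the pathway was read from lists of 54 genes in 6 roles, of which 46 were in the counts. From day 4 to day 7, 34 were compared, 1 was past 2-fold higher and 1 lower (all genes 2.25% and 2.76%), with a median log2 ratio of 0.03 beside 0.09 for all genes. The higher one was Tob1, an antiproliferative protein that also restrains BMP SMADs, at 19.4 CPM on day 4 and 53.8 on day 7, and the lower one was the ligand gene Bmp6, with 29 and 5 UMIs. From day 7 to day 14, 31 were compared, with 3 higher and 11 lower (all genes 10.1% and 14%) and a median of -0.74 beside -0.13. From day 4 to day 14, 5 were higher and 12 lower of 34 (all genes 13.5% and 15.3%), with a median of -0.65 beside -0.05.

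By role, 2 other ligand genes could be compared between days 7 and 14, with 1 higher and 1 lower. Gdf6 had 116, 70 and 1 UMIs on days 4, 7 and 14. Bmp7, known from kidney and bone, was at 5.13, 5.85 and 27.2 CPM on days 4, 7 and 14, and at 26.3 and 26.0 CPM in the differentiating and Leydig-like cells of day 14. Of the receptor and co-receptor genes, 0 of 9 were past 2-fold from day 4 to day 7 and 3 of 9 were lower from day 7 to day 14 (all genes 14%). Bmpr1a, a type I BMP receptor, was at 68.6, 76.6 and 70.8 CPM. Acvrl1, the type I receptor best known from endothelium, was at 29.3, 34.7 and 16.2 CPM and its co-receptor gene Eng at 35.6, 26.5 and 14.5. Endothelial markers summed to 93.6, 122 and 36.6 CPM on the same days, mostly Cdh5 (77.7, 111 and 22.4), while Pecam1 was at 1.97, 2.24 and 0. The part of such cells was not tested. Smad1, which carries the signal, was at 47.5, 38.4 and 16.7 CPM and Smad4 at 54.5, 44.0 and 44.7.

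Of the secreted BMP-binding proteins, 2 were past 2-fold higher and 5 lower of 10 from day 7 to day 14 (all genes 10.1% and 14%). Fstl1 was at 2466, 2361 and 578 CPM on days 4, 7 and 14, Fstl3 at 133, 66.7 and 20.8, Fst, the activin-binding follistatin, at 56.2, 38.5 and 9.77, and Nbl1, a relative of gremlin, at 114, 148 and 73.1. Chrd, which traps BMPs, was at 2.37, 4.99 and 17.5. Within day 14, 6 of 9 were past 2-fold higher in the differentiating than in the Leydig-like cells and 0 lower (all genes 5.91% and 4.12%), with a median log2 ratio of 1.32. Bmper was at 160 and 63.6 CPM (ratio 2.52, interval 2.11–3.02) and Chrdl1 at 37.1 and 1.22 (30.3, 11.4–114). Noggin, the gene Nog, was at or below 0.394 CPM on each day. Bmp6, Gdf6, Bmper, Chrd, Chrdl1, Nog, Cdh5, Pecam1, Bmpr1a, Smad4 and Bambi were chosen after their values were seen.

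Of the inhibitors in the cell or its membrane, Smurf1, a ubiquitin ligase for SMADs, was at 57.2, 36.3 and 17.8 CPM and Skil, a SMAD corepressor, at 121, 89.2 and 29.5. Bambi, a decoy receptor, was at 39.4, 38.0 and 65.0 CPM and, on day 14, at 44.3 CPM in differentiating and 78.3 in Leydig-like cells (ratio 0.566, interval 0.438–0.726). Among the partners of ID proteins, the E protein gene Tcf4 was at 195, 174 and 375 CPM, Tcf12 at 106, 96.2 and 51.8, and the bHLH gene Tcf21 at 30.9, 21.6 and 14.1. On day 14 Tcf21 was at 28.9 CPM in the differentiating and 3.98 CPM in the Leydig-like cells (ratio 7.26, interval 3.92–14.5). Of the immediate-early genes, Fos was at 11.9, 12.3 and 83.8 CPM by day, Fosb at 5.36, 7.48 and 23.1, Jun at 88.9, 127 and 44.9, Klf2 at 37.6, 32.6 and 15.4, Klf4 at 50.5, 34.1 and 11.8, and Klf6 at 214, 143 and 30.8. They moved in both directions between days, 2 higher and 4 lower of 12 from day 7 to day 14 (all genes 10.1% and 14%).

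**Figure D5:**
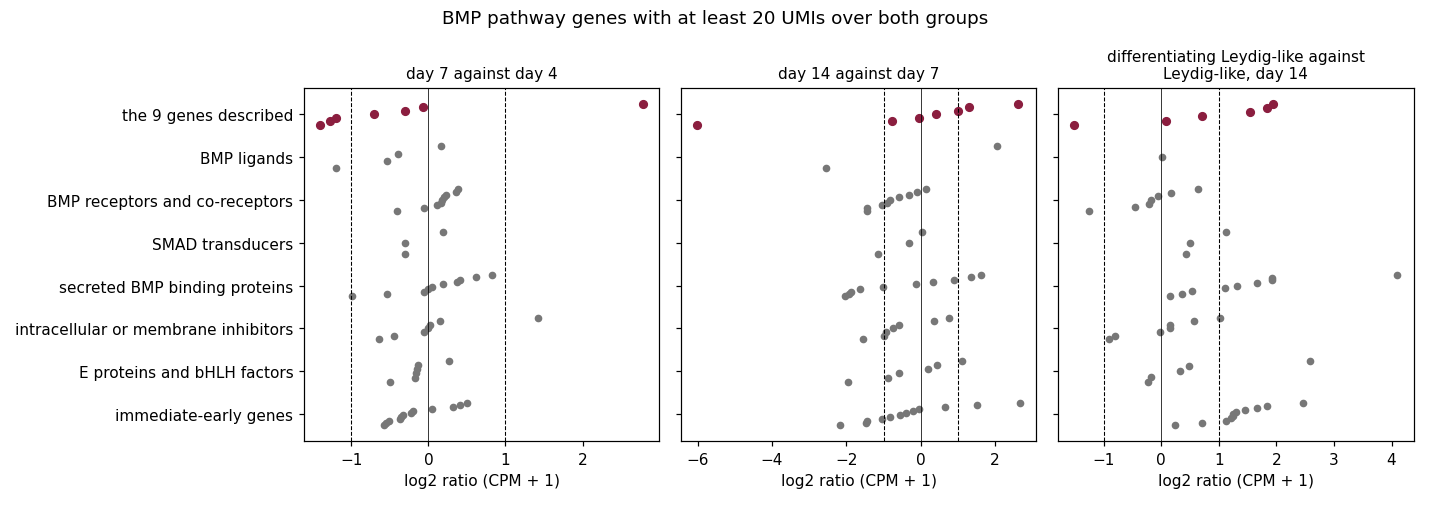
Log2 ratio of (CPM + 1) for each gene with at least 20 UMIs over both groups (x axis), by role (y axis), for 3 comparisons. The 9 genes described are in red and listed genes in grey, and dashed lines mark 2-fold. From day 7 to day 14 Grem1 stands at -6.01, and within day 14 the Id genes stand to the right together with 6 of 9 secreted binding proteins and 9 of 11 immediate-early genes.

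The genes most like each member were sought over the 10 class and day groups, among 4931 genes, by Pearson's r of log2(CPM + 10), as a description over groups that share libraries. For Grem1 they were Cyb5r1 (0.93), Pvrl3 (0.88) and Lamtor3 (0.88). For Id1 they were Brd3 (0.82), Stard8 (0.78) and Snai2 (0.77), for Id2 Itpr1 (0.88), Rpl13 (0.83) and Ocrl (0.82), and for Id3 Ocrl (0.88), Lnx1 (0.88) and Itpr1 (0.88). For Bmp4 they were Gab2 (0.92), Ufl1 (0.89) and Sh3bp5 (0.88), and for Smad7 Lsm12 (0.97), Ythdf1 (0.96) and Arf1 (0.95). Bmp2, Smad6 and Id4 were too low to be matched. These are the highest of 4931 genes over 10 groups, so part of their height comes from the search itself. Spearman's rank correlation was 0.53 for Id2 and Rpl13 and at least 0.73 for the other pairs. Among the members themselves, r was 0.76 for Id1 and Id2, 0.77 for Id1 and Id3 and 0.79 for Id2 and Id3, while for Grem1 it was -0.60 with Id2, -0.52 with Id3, -0.18 with Id1, -0.14 with Bmp4 and 0.47 with Smad7.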

How the data were processed

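The authors aligned Drop-seq reads to GRCm38 and deposited raw UMI counts per gene and cell, 1 library per day. Per the submitters' processing notes the tools were STAR 2.5.2a, Picard 2.6.0 and SAMtools 1.2. Annotation release and use of strand are not given in the sources used here, so overlapping or antisense genes may share reads. Cells with fewer than 500 genes, or with mitochondrial UMIs above 10%, are not in the merged table. Of its columns, 495 are not matched to a sample used here and entered no step.

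UMIs were summed per day, or per class and day, and given as CPM. Ratios carry exact conditional binomial intervals at 95%. Limits for a count of 0 use 3 counts, and folds against a count of 0 are the bound of the ratio's interval. All intervals cover counting error only. The first value of a log2 ratio is the later day or the class named first. Shares of cells were recomputed after each cell was thinned to 1500 UMIs (seed 1). Cells were clustered in Seurat 5.3.0 (R 4.3.3) with 2000 variable genes, 20 components, 20 neighbours and resolution 0.8, after the 9 genes and all pathway lists were left out. A cluster took the class whose markers had the highest median log2 ratio to other cells, of at least 1.5-fold with a pseudocount of 10 CPM, and 3 or more markers with 10 UMIs or more. These thresholds were set after clusters were seen, and names may differ from the study's own. Scrublet called at most 0.103% of cells per day and so did not work, and doublets were kept. Values were computed in Python 3.11.15 with scipy 1.17.1 and figures drawn with matplotlib 3.10.9. The ratio between days, its interval and the 2-fold call were tested on simulated counts. Clusters and thinning were not simulated.

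The members and lists were chosen with earlier results of these data known. Named were the 9 members, listed genes of at least 20 CPM on any day and past 2-fold between any 2 days (at most 30), the 3 genes most like each member of at least 20 CPM in a group (from genes of at least 50 CPM), and markers of the classes. The alternatives were other cell filters, weights, depths, scalings, doublet removal, count minimum, pseudocounts and cluster settings. One listed gene is counted in its list but not reported here by name.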

Additional observations from a re-analysis of the deposited data

Results flagged for a closer look

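Barcodes that the study's cell filter leaves out entered no comparison, and numbered 320 (day 4), 229 (day 7) and 327 (day 14). In them, 9 counts of the member genes lay above the 3 counts that a count of 0 allows. On day 4 they held 15 Id1, 15 Id2, 19 Id3 and 4 Smad7 UMIs. Those of day 7 held 5 Grem1 and 4 Id1 UMIs. Those of day 14 held 6 Id1, 4 Id2 and 9 Id3 UMIs. Id2 on day 4 was at 93.3 CPM in these barcodes and 24.8 CPM in the cells that were kept.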

How the results depend on the processing

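No paired analysis was possible because there is 1 library per day and no value comes from a test. For the same reason no replicate could be left out, and depth limits Bmp2, Smad6 and Id4, which no alternative can make firmer. Of 405 log2 ratios of the 9 genes recomputed under the alternatives, 374 stayed within the counting interval of the value given, 31 moved beyond it and 0 of the called ones changed sign. Of 130 counts of called genes, 121 stayed within 1.5 times. Between days 7 and 4, the 4 members past 2-fold became 2 (Grem1 and Id3) with a pseudocount of 5 CPM. The 2 pathway genes became 4 with cells thinned to 1000 UMIs, 1 with a pseudocount of 5 CPM and 5 with none. Between days 14 and 7, the 14 pathway genes became 7 with a pseudocount of 5 CPM. Between days 14 and 4, the 4 members became 2 (Id2 higher, Bmp4 lower) with cells thinned to 1500 UMIs and 1 (Bmp4) to 1000, where fewer genes reached 20 UMIs, and the 17 pathway genes became 11 with a pseudocount of 5 CPM. In the differentiating Leydig-like class between days 14 and 7, the 3 pathway genes became 6 with equal weight per cell, and the cause was not tested. Id3 passed 2-fold between days 14 and 7 under the stricter filter, equal weight per cell, thinning, median-of-ratios scaling, removal of high doublet scores and no pseudocount. Within day 14, Id1, Id2 and Id3 were past 2-fold higher in the differentiating than in the Leydig-like cells under every alternative run. With 30 components, or with the lists kept in the clustering, under 50 day 7 cells were differentiating Leydig-like (28 and 30), so no value was computed for that group. Having no pseudocount, and scaling within the class comparisons, were added after the data were seen. Median-of-ratios scaling moved every gene by -0.11 (log2) between days 7 and 4.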
